A study of Mus musculus with 2 samples.

Results

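The genes described here are 43 mouse genes of the DNA damage response and DNA repair, set against the 20949 protein-coding genes on chromosomes 1 to 19 and X. They were chosen by name, with earlier results of these data known. A gene was taken as marked when its symbol stood among the genes that the Sox4 peak list gives for a peak. Of the 43 genes, 27 had a promoter peak, meaning a peak interval within 5 kb of the transcription start site (TSS). A further 7 were listed only for a more distant peak, and 9 were listed for none. The peaks come from 1 streptavidin pull-down (bioChIP) library, beside which the series has 1 input chromatin library. The cells were C57BL/6 progenitor B cells from embryonic fetal liver, immortalized with the p190 form of Bcr-Abl. Retroviruses brought in BirA (a biotin ligase) first, then the p190 Bcr-Abl oncogene, then SE-Cre and finally the tagged factor, BAP-Sox4, with a sort after each step, and the input library is labelled as coming from the same cells. Sox4, an HMG-box transcription factor, was therefore profiled as the tagged protein from a retrovirus, in cells that also carried Bcr-Abl and Cre. With 1 pull-down library there was no replicate, so no test was made and every value describes this library only. The labels do not say how many animals or clones gave the cells.

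Cells repair DNA by several routes. Homologous recombination copies an intact sister sequence across a broken chromosome, and checkpoint kinases and chromatin-bound adaptors signal the break. The Fanconi pathway removes cross-links between strands, mismatch repair corrects replication errors, and nucleotide and base excision repair remove bulky lesions and single damaged bases. Progenitor B cells divide rapidly and also cut and rejoin their own immunoglobulin genes. A peak marks pulled-down chromatin and says nothing on how much RNA a gene makes, which was not analysed here.

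The list held 8730 peaks with a median of 71 tags (reads in the peak), a median fold of 4.43 over the background of the peak caller and a median score of 104.9. Scores were taken to be minus 10 log10 of p, so that 50 stands for 1e-05, and the lowest score was 50.03. Tags, folds and scores are the authors' own. Sequencing depth was not given in the sources used here. Intervals on tag counts are exact Poisson 95% intervals, which cover counting error only and leave out PCR duplicates. Tag counts and their intervals were not scaled to peak width. The labelled cell type was compared with fixed markers. Promoter peaks, meant as above, were listed at 6 of 8 B-lineage genes (among them Cd79a, Vpreb1, Igll1, Ebf1 and Rag1). They were listed at 0 of 4 hepatocyte genes, at 1 of 4 erythroid genes (Klf1) and at 32.8% of all protein-coding genes. Of the B-lineage genes named, only Cd79a and Igll1 had a peak over their own TSS. The Vpreb1 peaks lay over the starts of other genes, at -1142 and 4661 bp, and the Ebf1 peak lay at -4688 bp.

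Promoter peaks were found at 27 of the 43 damage response and repair genes (62.8%), while 32.8% of all protein-coding genes had one. By route, the counts were 7 of 10 genes in homologous recombination, 5 of 8 in damage signalling, 3 of 7 in the Fanconi pathway, 2 of 3 in mismatch repair, 3 of 7 in nucleotide excision repair and 7 of 8 in base excision repair. The base excision and recombination genes thus had the highest counts and the Fanconi and nucleotide excision genes the lowest, but with 3 to 10 genes a route the counts were too small to rank, and no test of the difference was made. Each of the 27 genes had a peak interval over its own TSS. A peak over the TSS was thus found at 62.8% of the 43 members and at 28.4% of all protein-coding genes. Narrowing the window to 1 kb therefore left the count at 27, with 30.2% of all genes counted that way. A window of 20 kb gave 29 members, with 41.9% of all genes. Listed for any peak were 34 members (79.1%) and 48.9% of all genes, and counting peaks inside a gene or up to 10 kb from it gave 31 members and 40.7% of all genes. Inside the 5 kb window, the only promoter peak away from a member's own TSS lay at -2614 bp from the Mdc1 TSS (negative is upstream). Just outside it, Apex1 had a further peak 5368 bp from its TSS and H2afx one at -7427 bp. Among the members without a promoter peak, the nearest to a TSS was 9295 bp away, at Fancg.

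**Figure D1:**
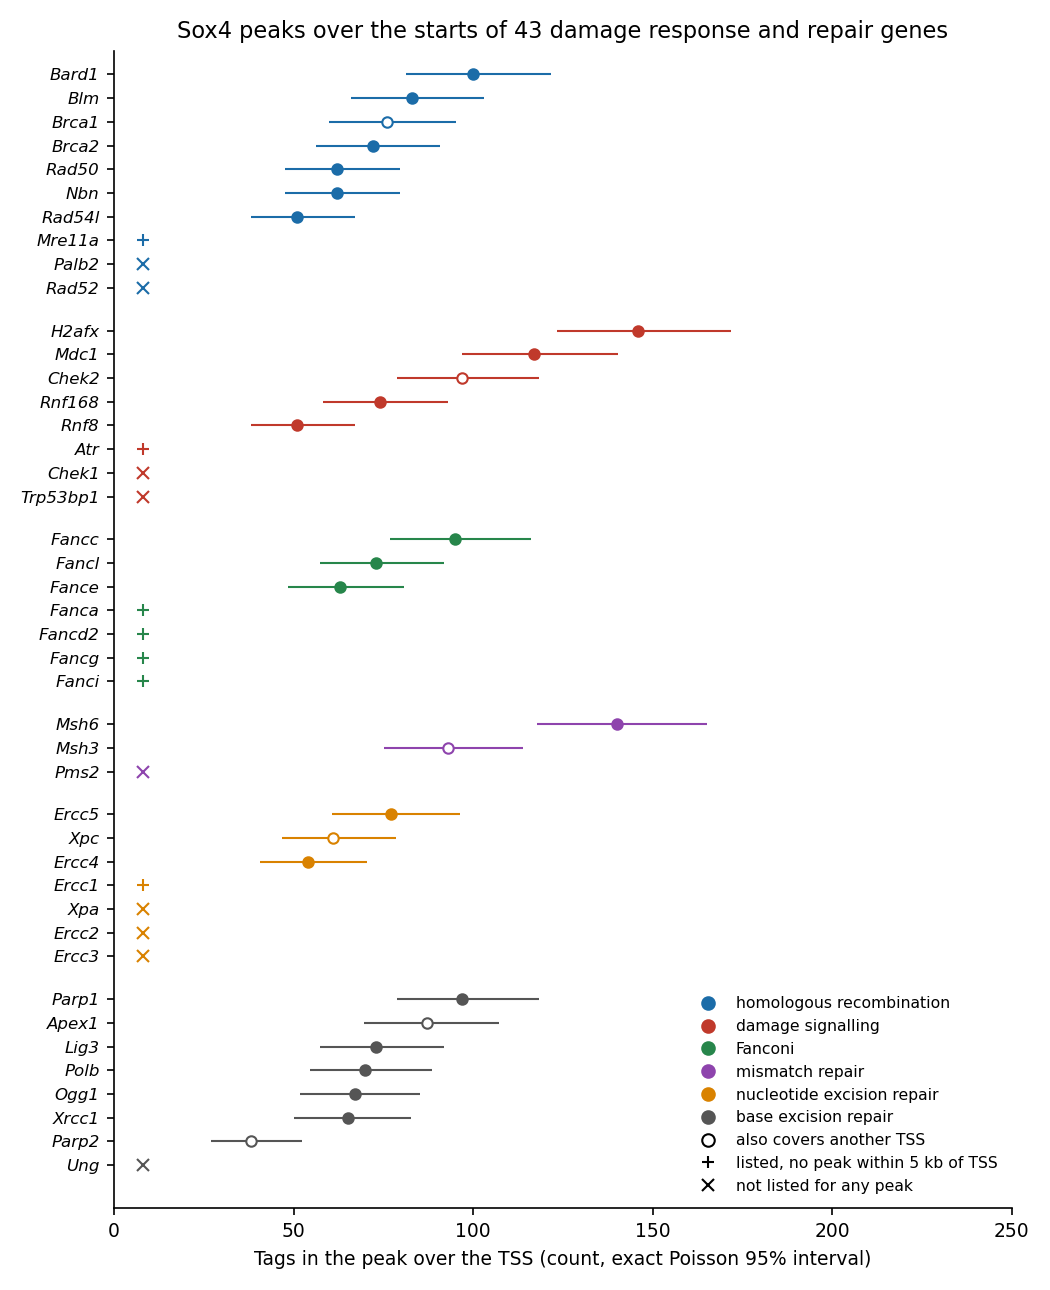
Tags in the peak over the TSS of each of the 43 genes, grouped by repair route, with exact Poisson 95% intervals; crosses at the left edge are genes without a promoter peak and have no tag value. The counts ran from 38 tags at Parp2 to 146 at H2afx, and open circles show the 6 peaks that also covered the TSS of another gene.

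The promoter letters of some of these genes are shown first, because a motif of cell-cycle promoters stood in a larger share of the marked members' promoters than of other marked promoters, a difference that was not tested. Sequences are RefSeq promoters of build GRCm38.p6, matched to the members by gene. The deposited peaks are on build mm9, and whether each RefSeq TSS is the one used in the peak list was not tested. The table held 37 promoters of 36 members, without Rad50, Nbn, H2afx, Fancd2, Xpc, Ercc3 and Polb, and of these 23 promoters (22 genes) belonged to members with a peak over the TSS. E2F factors are the regulators of genes for S phase, and their site was searched as TTTCCCGC or TTTGGCGC on either strand. In the promoter window from 250 bases before to 50 after the TSS, these letters stood in 6 of the 23 promoters (26.1%), namely those of Brca2, Bard1, Chek2, Mdc1, Msh3 and Msh6. They stood in 3.9% of the promoters of all protein-coding genes with a peak over a TSS, and in 1.56% of all promoters in the table. Of the 14 members without a promoter peak that the table held, 1 (7.14%) held the letters, Fancg. Of the promoters of all protein-coding genes without a promoter peak, 1.26% held them. The members' share was thus the higher with and without a peak, though without a peak it rests on 1 promoter. The stretches of 250 bases before the TSS are given for 4 of the 6 genes, and for Chek1, which has no peak and no such letters. In Msh6 the match lay after the TSS and is not shown. The stretches lie at chr17:35841248-35841497 (plus strand), chr5:110839733-110839982 (plus strand), chr1:71102973-71103222 (minus strand), chr5:150522371-150522620 (plus strand) and chr9:36726659-36726908 (minus strand). Capitals mark the E2F letters.
Mdc1: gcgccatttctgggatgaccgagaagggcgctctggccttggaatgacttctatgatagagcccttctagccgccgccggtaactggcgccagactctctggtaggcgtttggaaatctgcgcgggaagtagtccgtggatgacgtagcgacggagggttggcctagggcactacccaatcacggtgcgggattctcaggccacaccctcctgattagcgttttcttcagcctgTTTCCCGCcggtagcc
Chek2: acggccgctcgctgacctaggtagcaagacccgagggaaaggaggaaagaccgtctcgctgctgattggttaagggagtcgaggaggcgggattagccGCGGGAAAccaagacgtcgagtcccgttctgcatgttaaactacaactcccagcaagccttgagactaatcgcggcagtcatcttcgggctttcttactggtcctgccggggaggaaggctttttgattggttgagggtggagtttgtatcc
Bard1: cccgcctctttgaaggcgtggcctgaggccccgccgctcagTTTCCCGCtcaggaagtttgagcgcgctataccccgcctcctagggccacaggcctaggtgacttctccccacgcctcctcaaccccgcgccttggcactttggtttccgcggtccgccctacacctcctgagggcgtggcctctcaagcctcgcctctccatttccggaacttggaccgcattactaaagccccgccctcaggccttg
Brca2: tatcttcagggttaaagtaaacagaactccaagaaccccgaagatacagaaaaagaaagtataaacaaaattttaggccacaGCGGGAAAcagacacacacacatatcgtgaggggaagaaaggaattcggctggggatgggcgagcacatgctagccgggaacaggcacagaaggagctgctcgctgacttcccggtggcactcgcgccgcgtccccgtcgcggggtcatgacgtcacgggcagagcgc
Chek1: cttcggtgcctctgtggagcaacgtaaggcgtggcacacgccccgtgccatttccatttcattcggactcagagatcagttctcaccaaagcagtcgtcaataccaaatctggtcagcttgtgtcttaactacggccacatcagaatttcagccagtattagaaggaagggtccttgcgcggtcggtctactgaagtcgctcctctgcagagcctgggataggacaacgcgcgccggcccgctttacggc

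The core letters of Sox sites stood in similar shares of the marked and the unmarked members' promoters. The Sox core was searched on either strand in 3 spellings. They were ACAAAG, the variant ACAATG and, with its frame moved by a base so that it can overlap the variant, AACAAT. It stood in 7 of the 23 promoters of members with a peak over the TSS (30.4%) and in 4 of the 14 in the table of members without a promoter peak (28.6%). Over protein-coding genes it stood in 23.0% of the promoters with a peak over a TSS and in 32.1% of those without a promoter peak, and in 33.2% of all promoters of the table. Peaks were wider than this window, and letters outside it were not read. ACAAAG alone stood in 5 of the 23 marked promoters (21.7%), those of Brca1, Rnf168, Ercc5, Xrcc1 and Parp2. It stood in 3 of the 14 promoters of members without a promoter peak (21.4%) and in 18.7% of all promoters of the table. Over protein-coding genes ACAAAG stood in 14.3% of the promoters with a peak over a TSS and in 17.9% of those without a promoter peak. The stretches before the TSS of Parp2 at chr14:50807666-50807915 (plus strand), Ercc5 at chr1:44147494-44147743 (plus strand) and Brca1 at chr11:101551956-101552205 (minus strand) show it in capitals, on the written strand in the first and second and as its reverse complement in the last.
Parp2: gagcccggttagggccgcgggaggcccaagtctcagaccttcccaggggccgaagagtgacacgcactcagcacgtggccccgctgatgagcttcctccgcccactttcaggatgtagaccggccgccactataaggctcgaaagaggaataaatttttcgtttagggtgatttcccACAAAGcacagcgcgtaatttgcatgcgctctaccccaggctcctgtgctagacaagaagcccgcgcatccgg
Ercc5: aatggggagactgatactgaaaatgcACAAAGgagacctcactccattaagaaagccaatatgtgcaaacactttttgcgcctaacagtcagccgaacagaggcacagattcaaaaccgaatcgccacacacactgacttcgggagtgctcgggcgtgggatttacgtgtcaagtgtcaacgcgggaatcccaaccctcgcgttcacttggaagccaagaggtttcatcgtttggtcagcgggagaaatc
Brca1: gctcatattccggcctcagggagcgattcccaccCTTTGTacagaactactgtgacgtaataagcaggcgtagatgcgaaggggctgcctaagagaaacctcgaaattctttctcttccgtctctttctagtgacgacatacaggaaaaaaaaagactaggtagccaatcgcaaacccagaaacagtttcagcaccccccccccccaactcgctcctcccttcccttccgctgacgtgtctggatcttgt

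The members' promoters were rich in CpG with or without a peak. The ratio of observed to expected CpG had a median of 0.874 in promoters of members with a peak over the TSS and 0.781 in members without a promoter peak. The medians for all protein-coding genes were 0.828 with a peak over a TSS and 0.388 without a promoter peak. The unmarked members thus lay near marked genes in CpG content rather than near other unmarked genes. The lowest ratio among the members was 0.182, at Fancl, whose promoter held 3 CpG in all, although its peak had the highest fold in the Fanconi group. The bases before its TSS, at chr11:26386834-26387083 (plus strand), are shown with CpG in capitals.
Fancl: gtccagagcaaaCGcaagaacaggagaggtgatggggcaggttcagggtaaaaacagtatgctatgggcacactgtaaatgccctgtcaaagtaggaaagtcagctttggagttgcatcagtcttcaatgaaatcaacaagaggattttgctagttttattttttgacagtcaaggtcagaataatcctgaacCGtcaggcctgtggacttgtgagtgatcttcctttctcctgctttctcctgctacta
Of the other motifs searched, chosen after the counts were known, CCAAT stood in 15 of the 23 marked promoters (65.2%) and in 36.8% of those of all marked protein-coding genes. The ETS letters CCGGAAGT stood in 2 of 23 (8.7%) and in 9.44%. The CRE letters TGACGTCA stood in 1 of 23 (4.35%, Brca2) and in 3.44%, and the TATA letters TATAAA in 1 of 23 (4.35%, Brca2) and in 5.51%. In all promoters of the table the shares were 37.4% for CCAAT, 3.89% for ETS, 1.79% for CRE and 13.6% for TATA. Without a promoter peak, CCAAT stood in 6 of the 14 members' promoters (42.9%) and in 39.2% of those of all protein-coding genes. E2F and CCAAT were likewise chosen after earlier results were known, and a match of letters does not show that a factor was bound.

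**Figure D2:**
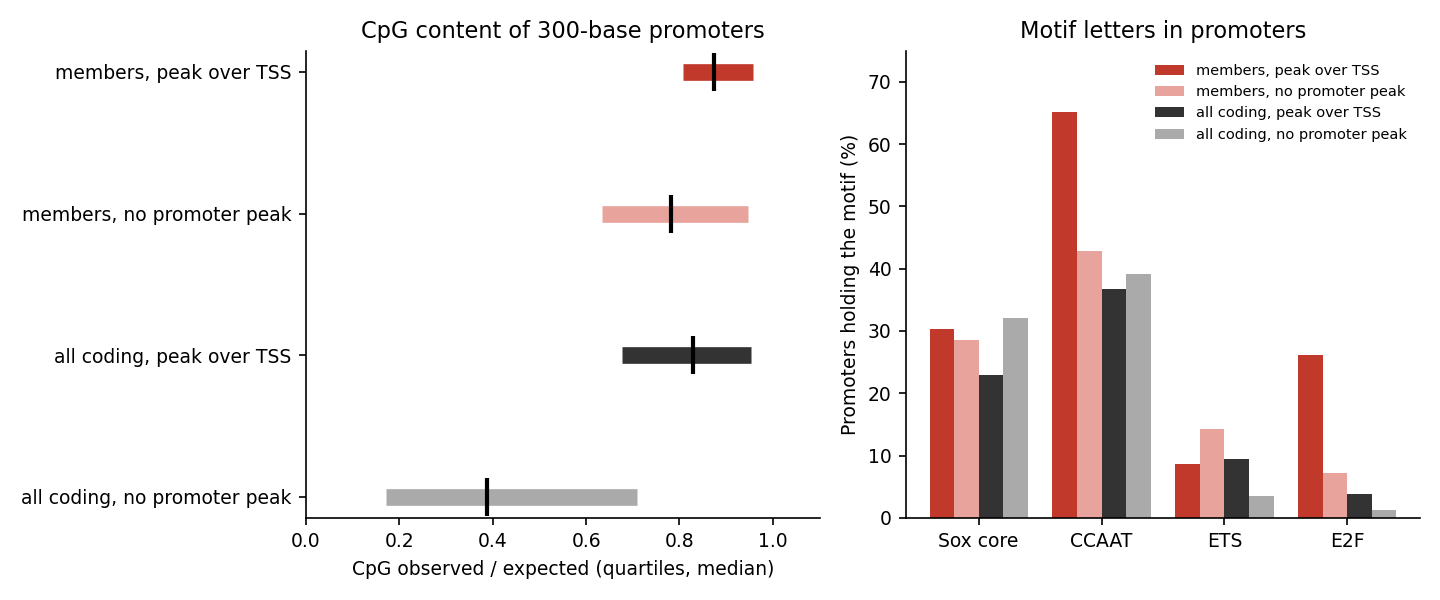
Left, ratio of observed to expected CpG in 300-base promoters (bars span the quartiles, ticks are medians); right, percentage of promoters that hold each motif, for members and for all protein-coding genes with and without a peak. Members without a peak sit near the marked genes in CpG (median 0.781). The E2F letters stand in 26.1% of the marked members' promoters and in 3.9% of those of all marked protein-coding genes. Without a promoter peak the shares are 7.14% and 1.26%.

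Homologous recombination genes were marked at 7 of 10 starts, all of them modest peaks. Bard1, the partner of the ubiquitin ligase BRCA1, had the highest score of the group (chromosome 1, 71149023 to 71150140, mm9; 100 tags, 81.4 to 121.6; fold 4.56; score 169.5). Brca2, a mediator of strand exchange, followed on chromosome 5 from 151324740 to 151325594 with 72 tags (56.3 to 90.7), enriched 5.23-fold, with a score of 119.8. Blm, a helicase that dissolves recombination intermediates, had 83 tags at 3.86-fold enrichment, scoring 99.1. Rad50, of the complex that holds and trims broken ends, had 62 tags at 4.85-fold enrichment, scoring 93.5. Its complex partner Nbn also had 62 tags but at 2.73-fold, the lowest of all members, and its score of 51.4 lay just above the lowest of the list. The motor protein gene Rad54l had 51 tags at 5.42-fold enrichment, scoring 82.4. At Brca1 the peak on chromosome 11 from 101413061 to 101414212 held 76 tags (59.9 to 95.1) at 3.17-fold enrichment, scoring 62.1, and its interval also held the TSS of the autophagy receptor gene Nbr1. The tag interval of Bard1 did not overlap those of Rad50, Nbn (47.5 to 79.5 each) and Rad54l (38.0 to 67.1), and it overlapped those of Blm, Brca1 and Brca2. The Bard1 peak was 1117 bp wide, and those of Rad50, Nbn and Rad54l were 877, 863 and 725 bp. Tag densities were 89.5 per kb at Bard1 and 70.7, 71.8 and 70.3 per kb at these 3 genes. The group's median score was 93.5, and the median over all promoter-peak genes was 119.2.

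The remaining 3 recombination genes lacked a promoter peak. Palb2, which bridges BRCA1 and BRCA2, and Rad52 were listed for no peak. Mre11a, the nuclease of the complex with Rad50 and Nbn, was listed for a peak 5612 bp past its end (37 tags, fold 4.54, score 54.4). Of that complex of 3 genes, Rad50 and Nbn were therefore marked at the start and Mre11a was not.

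Damage signalling genes held the strongest and some of the weakest peaks of the members. H2afx, which encodes the histone variant phosphorylated around breaks, had the most tags over a start (chromosome 9, 44142175 to 44144054; 146 tags, 123.3 to 171.7; fold 5.32; score 306). Its interval was also the widest over a member's TSS, at 1879 bp. Mdc1, the adaptor that reads the phosphorylated histone, had a peak over its TSS with 117 tags (chromosome 17, 35978014 to 35979032; 96.8 to 140.2), enriched 8.3-fold, with a score of 396.2. This was the highest fold and score over a member's start. A larger peak lay at -2614 bp (353 tags, 317.1 to 391.8; fold 12.03; score 1304.8), and it covered the TSS of the tubulin gene Tubb5. It was the only promoter peak of a member with a fold of 10 or more, a level reached at 1.48% of all protein-coding genes. Chek2, a checkpoint kinase, had 97 tags (chromosome 5, 111268435 to 111269573; 78.7 to 118.3) at 6.47-fold enrichment, scoring 234.4. The same interval held the TSS of Hscb, a co-chaperone of iron-sulfur cluster assembly.

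The ubiquitin ligases of break signalling were marked weakly. Rnf168 had 74 tags at 3.33-fold enrichment, scoring 73.3, and Rnf8, which acts before it, had 51 tags at 3.33-fold enrichment, scoring 56. The tag intervals of H2afx (123.3 to 171.7) and Rnf8 (38.0 to 67.1) were far apart. Their peaks differed in width, at 1879 and 783 bp, and the tag densities were closer, at 77.7 and 65.1 per kb. The median density over all promoter-peak genes was 78.1 per kb. The kinase gene Chek1 and the adaptor gene Trp53bp1 were listed for no peak. Atr, the kinase that activates CHEK1, was listed only for a peak 2820 bp past its end, which covered the TSS of the exonuclease gene Xrn1 (52 tags, fold 5.43, score 103.8). Atr and Chek1 themselves thus had no promoter peak, whereas Chek2 had one.

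Mdc1 and H2afx lie in gene-dense stretches with several peaks. Mdc1 was listed for 7 peaks, and those outside its promoter included one over the TSS of Ppp1r18 (217 tags, fold 10.19, score 679.1) and weaker ones over those of Flot1 and Nrm. H2afx was listed for 4 peaks, and the others included peaks over the TSS of Dpagt1 and C2cd2l at folds of 4.96 and 4.63. The peak over the H2afx start held the most tags of its 4, and the peak over the Mdc1 start stood behind those of Tubb5 and Ppp1r18.

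Fanconi pathway genes were marked at 3 of 7 starts. Fancl, the ubiquitin ligase of the pathway, had the highest fold (chromosome 11, 26286739 to 26287596; 73 tags, 57.2 to 91.8; fold 7.11; score 170.5). Fancc, of the core complex, had 95 tags (76.9 to 116.1) at 3.78-fold enrichment, scoring 131.9, and Fance, a core subunit, had 63 tags (48.4 to 80.6) at 4.37-fold enrichment, scoring 127.8. The 3 tag intervals overlapped one another. The members that FANCL modifies, Fancd2 and Fanci, had no promoter peak and were listed for peaks 8188 and 15543 bp past their ends, over the TSS of Brk1 (fold 2.93) and Polg (fold 4.68). Fanca was listed for a peak over the TSS of Vps9d1 and Zfp276, 13444 bp past its end (fold 5.59). Fancg was listed for 4 peaks, none nearer its TSS than 9295 bp, at folds from 3.62 to 5.55.

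Mismatch repair genes were marked at 2 of 3 starts. Msh6, which recognises base mismatches, had 140 tags (chromosome 17, 88373689 to 88375285; 117.8 to 165.2), the second most over a member's TSS, at 3.41-fold enrichment, scoring 158.9. Its interval was 1596 bp wide, so the tag density of 87.7 per kb was close to the 89.5 per kb at Bard1. Msh3, which recognises larger loops, had 93 tags (chromosome 13, 93124178 to 93125474; 75.1 to 113.9) at 3.73-fold enrichment, scoring 142.1. That interval also held the TSS of a neighbouring gene, which the peak list names as the closest. Pms2, the endonuclease subunit that follows recognition, was listed for no peak.

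Nucleotide excision repair genes were marked at 3 of 7 starts, all of moderate or low strength. Ercc5, the nuclease XPG, had 77 tags (chromosome 1, 44204313 to 44205282; 60.8 to 96.2) at 4.38-fold enrichment, scoring 124.8. Xpc, the damage sensor, had 61 tags (46.7 to 78.4) at 4.95-fold enrichment, scoring 112.5, in an interval shared with the TSS of the RNA-binding protein gene Lsm3. Ercc4, the nuclease XPF, had 54 tags (40.6 to 70.5) at 3.22-fold enrichment, scoring 77.1. Ercc1, the partner subunit of XPF, was listed only for a peak at -11724 bp from its TSS (52 tags, fold 3.45, score 60). The damage-verifying gene Xpa and the helicase genes of TFIIH, Ercc2 and Ercc3, were listed for no peak.

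Base excision and single-strand break repair genes were marked at 7 of 8 starts. Apex1, the endonuclease that cuts at sites without a base, had the highest score and fold of the group (chromosome 14, 51544257 to 51545154; 87 tags, 69.7 to 107.3; fold 6.84; score 163.4), and its peak also covered the TSS of Osgep, a gene of tRNA modification. Parp1, the main sensor of strand breaks, had 97 tags (chromosome 1, 182498658 to 182499739; 78.7 to 118.3) at 5.3-fold enrichment, scoring 159.1, and a further weak peak inside the gene (fold 3.05, score 50.4). The scaffold gene Xrcc1 had 65 tags (50.2 to 82.8), enriched 4.73-fold, with a score of 123. The polymerase gene Polb had 70 tags at 3.9-fold enrichment, scoring 97. The oxidized-guanine glycosylase gene Ogg1 had 67 tags at 3.86-fold enrichment, scoring 89.5, and the ligase gene Lig3 had 73 tags at 3.52-fold enrichment, scoring 86.8. Parp2 had the fewest tags of all marked members (38, 26.9 to 52.2; fold 3.87; score 52.4), and its peak also covered the TSS of Rpph1, the RNA of RNase P. The tag intervals of Parp1 and Parp2 did not overlap, but their peaks differed in width, at 1081 and 625 bp. Their tag densities were 89.7 and 60.8 per kb. Ung, the glycosylase that removes uracil, was listed for no peak.

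In strength, the marked members lay near other marked genes at the median. The median score of the highest promoter peak was 119.8 for the 27 members and 119.2 for the 6875 protein-coding genes with a promoter peak. The median fold was 4.37 and 4.51, the median tag number 73 and 78, and the median width 897 and 982 bp. Of the 27 members, 14 lay above the median score of those genes and 12 above the median fold. Above the upper quartile of the scores (197.6) stood only Mdc1, H2afx and Chek2, and for Mdc1 this held for its own peak (396.2) as well as for that of Tubb5. Below the lower quartile (79.7) stood 6 members. The share of members marked was thus above that of all genes, and the medians of their peaks were close to those of other marked genes.

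**Figure D3:**
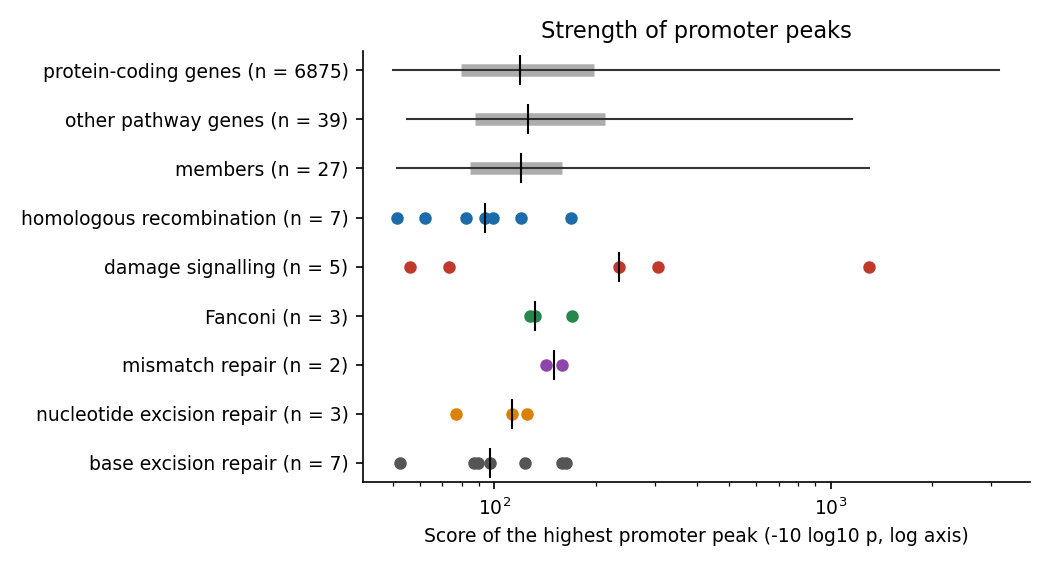
Score of the highest promoter peak on a log axis; for the 3 broad sets the thick bar spans the quartiles, the thin line the range and the tick is the median, and for the repair routes each dot is a gene. The medians of members (119.8) and of all promoter-peak genes (119.2) are nearly the same, and the point at 1304.8 is the Tubb5 peak counted for Mdc1.

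Summit positions were read only from peaks over the gene's own TSS, which by itself keeps the summits near the start. Such peaks had a median width of 897 bp for members and 1001 bp for protein-coding genes. The position of the TSS on mm9 could be worked out for genes that were also listed for a peak away from the TSS and whose strand the promoter table gave, which held for 12 marked members and 2506 protein-coding genes. The highest promoter peak covered the gene's own TSS at 26 of the 27 members, all but Mdc1, and at 83.6% of all promoter-peak genes. In the peaks over the TSS, for Mdc1 the one over its own start, summits lay within 250 bp of the TSS at 11 of the 12 members. The same held for 74.2% of the 2506 protein-coding genes. The member summits ran from -191 bp at Ogg1 to 363 bp at Ercc5, with a median of -47 bp, and the median over the 2506 genes was -38 bp. In Mdc1 the summit lay 170 bp inside the gene, in Apex1 47 bp, in Blm 31 bp and in Xrcc1 2 bp, and in the other 7 members it lay upstream.

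**Figure D4:**
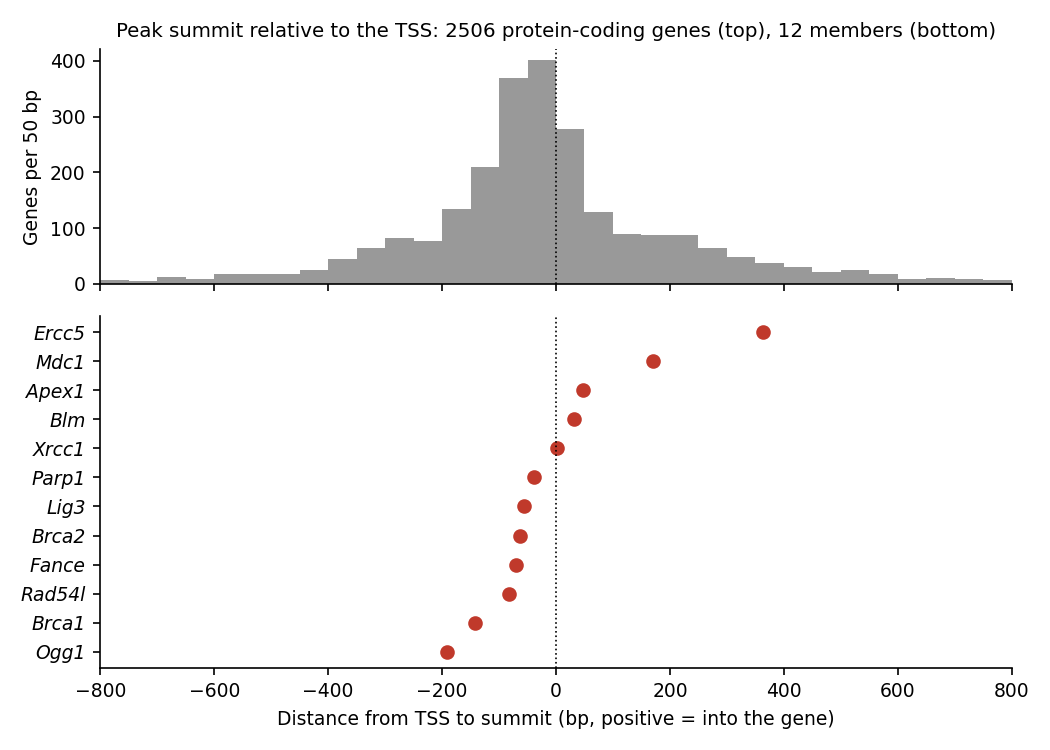
Distance in bp from the TSS to the summit of a peak that covers it, as a histogram over 2506 protein-coding genes (top; the few beyond the axis are not drawn) and for 12 members (bottom). The member summits lie between -191 and 363 bp.

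Several members share their start with a neighbour. The highest promoter peak covered the TSS of another gene at 7 of the 27 members, and at 24.4% of all promoter-peak genes. They include Brca1 with Nbr1, Chek2 with Hscb, Xpc with Lsm3, Apex1 with Osgep, Parp2 with Rpph1, Msh3 with a neighbour, and the Mdc1 peak at Tubb5. A peak at such a start cannot be given to one gene of the pair. For Brca1, Chek2, Msh3, Xpc and Parp2, and for the Mdc1 peak at Tubb5, the file names the partner as the closest gene. Among peaks over the gene's own TSS, another gene was named closest at 5 of 27 members (18.5%) and at 12.1% of protein-coding genes. With the closest gene alone the count of members was 22 of 43, with 27.7% of all protein-coding genes counted so. The 6 shared starts over a member's own TSS had a median fold of 4.41, and the 21 starts of a member alone had 4.37.

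Other genes of the same pathways, also chosen with earlier results of these data known, were marked at a similar rate. Of 69 such genes, 39 had a promoter peak (56.5%): 9 of 17 in homologous recombination, 9 of 13 in damage signalling, 4 of 9 in the Fanconi pathway, 2 of 4 in mismatch repair, 6 of 10 in nucleotide excision repair and 9 of 16 in base excision repair. Some of their peaks were stronger than those over a member's start. Hus1, a clamp subunit that serves Atr, had 212 tags, enriched 21.27-fold, with a score of 1093.1. Rmi1, which works with Blm, had 321 tags, enriched 12.87-fold, with a score of 1156.2, in an interval shared with the TSS of Hnrnpk. Ercc6, the transcription-coupled repair factor CSB, had 180 tags, enriched 15.77-fold, with a score of 661.7. The helicase gene Brip1 scored 370.2 at 7.59-fold enrichment. Mus81 scored 604.4 in a peak over the Cfl1 start, at -1665 bp from its own, and 208.9 over its own start (fold 4.34). Ddb1 scored 445.9 at -2231 bp, in a peak for which the peak list names Dak as the closest gene. Over its own start Ddb1 scored 86.7 (fold 3.41). Ube2n and Usp1 scored 318.5 and 281.1 over their starts. Tdg scored 178.6, but the file names Gm9855 as the closest gene, which RefSeq lists as the transcribed pseudogene Tdg-ps2, so this value is uncertain. Neil1 scored 133.9. A fold of 10 or more at a promoter was reached by 5 of the 69 genes and by 1 of the 43 members. Mus81 and Ddb1, like the member Mdc1, reached it only in peaks off their own start.

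**Figure D5:**
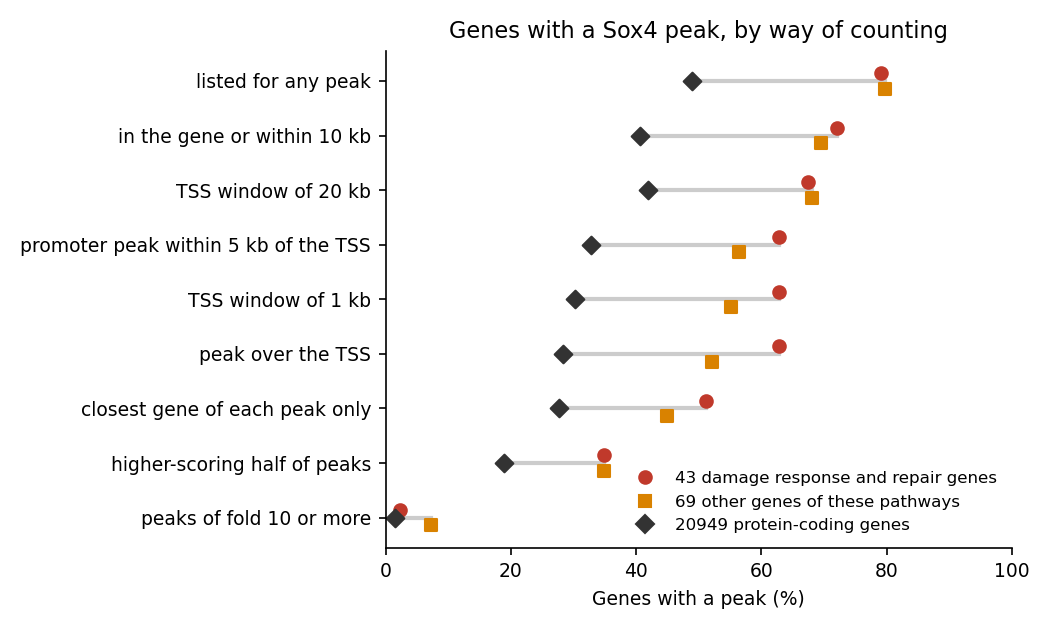
Percentage of genes with a Sox4 peak under each way of counting, for the 43 members (circles), 69 other genes of these pathways (squares) and 20949 protein-coding genes (diamonds). For promoter peaks the members stand at 62.8% and the protein-coding genes at 32.8%. At a fold of 10 or more the shares are 2.3% and 1.48%. The 2.3% is 1 gene, Mdc1, counted through the peak over the Tubb5 start. The 9 counts drawn are cuts of 1 peak list and are not independent of one another.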

How the data were processed

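The submitters' processing notes name mm9, the aligner Bowtie (0.12.8) and the peak caller MACS (1.4.2), without parameters. Use of the input as a control for the calls is not given in the sources used. The deposited tag number is a raw count per peak, the deposited fold is a linear ratio over the peak caller's background, and the deposited score was taken, from its range, as minus 10 log10 of p. Distances, in bp from the peak interval, are deposited too, and genes were listed to at most 25 kb from a peak. As background served 20949 coding genes holding NM accessions in the RefSeq table (GRCm38.p6), matched to 15228 listed transcripts by accession (14989), symbol (195) or older symbol (32), with 12 unmatched. All 43 members gave the same peaks by symbol and by accession. The gene counting was tested on simulated data. Python 3.11.15, pandas 2.3.3 and scipy 1.17.1 were used. Members, routes, pathway lists and motifs were chosen with earlier results of these data known. All members are named; up to 4 per route were to get full values, and up to 2 other pathway genes per route. TSS positions for summits came from deposited distances and RefSeq strands. Some neighbouring, marker and pathway genes are not reported here.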

Additional observations from a re-analysis of the deposited data

How the results depend on the processing

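Of 51 recounts under other settings, 33 stayed the same (for counts, within 1.5 times) and 18 moved. With peaks scoring above the list's median only, the count of members with a promoter peak fell from 27 to 15 (18.9% of all genes), recombination genes to 2, signalling genes to 3, base excision genes to 3, other pathway genes to 24 and members listed for any peak from 34 to 21 (31.5% of all genes). With peaks of fold 10 or more, 1 member was left, a signalling gene, the other routes had 0 and the other pathway genes 5. With the closest gene only, mismatch repair had 1. The members' median score and fold are also among the 18 that moved, though they went only from 119.8 to 121.4 and from 4.37 to 4.38. Over all genes of the table, noncoding ones included, 14.8% had a promoter peak. No paired analysis was possible because the series has 1 library per group. Unknown depth and the lack of a pull-down without tagged Sox4 in this list limit what a missing or weak peak shows.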

Other observations

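Peaks listed for members more than 5 kb from their TSS lay mostly at neighbouring genes. How often this holds over all genes was not counted, so it is not shown to be particular to the members. Of the 33 listings beyond 5 kb, 23 covered the TSS of another gene and 32 lay outside the member's own gene, the exception being the weak peak inside Parp1. The strongest of them after that over Ppp1r18 near Mdc1 were the peak over Brpf1, at -19377 bp from the Ogg1 TSS (143 tags, fold 6.1, score 315.7), and the peak over Chchd4 and Tmem43, 15279 bp past the end of Xpc (98 tags, fold 4.67, score 207.1). Both scored above the peak over the member's own start (89.5 at Ogg1 and 112.5 at Xpc). Blm had a further peak at -19466 bp that covered no listed TSS (69 tags, 53.7 to 87.3, fold 5.88, score 124.1), with a higher fold than the peak over the Blm start (3.86), and the tag intervals of the pair overlapped.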
